A study of Rattus norvegicus with 6 samples.

Results

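Genes of the Wnt pathway were examined in INS-1 cells, an insulin-secreting line derived from a rat insulinoma and used to model beta cells. The genes were chosen by symbol from a list of 47 that covers Wnt ligands, their secretion, receptors, secreted antagonists, and the cytoplasmic and nuclear steps of the pathway. Of these, 46 were found among the 35362 gene rows of the deposited table, and Axin1 is not analysed here. The cells had been transduced with retroviruses made from pMX-puro-Flag-Menin and overexpressed a menin mutant, either S487D (3 libraries) or S487A (3 libraries). Menin is encoded by Men1 and acts in the nucleus, where it helps recruit the MLL family of histone methyltransferases and other regulators to genes. In S487D the serine is replaced by aspartate, an acidic residue often used to stand in for a phosphorylated serine, and in S487A by alanine, which cannot be phosphorylated. Both groups came from the same line at passages 75 to 80 and both carried the vector and the Flag tag. The study concerns phosphorylation of menin downstream of the incretin hormone GLP-1, and the comparison asks how the transcriptomes of cells with the 2 mutants differ. Neither wild-type menin nor untransduced cells are analysed here, so each direction is that of S487D relative to S487A.

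Wnt proteins are secreted, lipid-modified ligands that bind Frizzled receptors together with co-receptors. In the canonical branch, Lrp5 and Lrp6 are the co-receptors, a cytoplasmic complex of Axin, Apc and kinases that otherwise marks beta-catenin for degradation is held back, and beta-catenin enters the nucleus to act with TCF and LEF factors. Other branches run through receptors such as Ror1, Ror2 and Ryk and do not need beta-catenin. In the pancreas the pathway is known for its part in islet development, and Wnt4 is known to be expressed in mouse islets.

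RPKM, the deposited unit, scales reads to gene length and library size, and with the gene lengths it gave back the reads. Per library these numbered 9444801 to 10253573 in S487D and 10037113 to 10867549 in S487A. For a 1 kb gene, 1 read equals 0.0975 to 0.106 RPKM in S487D and 0.092 to 0.0996 RPKM in S487A. The overexpressed gene, Men1, was at 113, 103 and 119 RPKM in S487D and 71.2, 76.7 and 75.0 RPKM in S487A, so its mRNA was high under both labels and higher in S487D (log2 change 0.58, limma adjusted p = 2.89e-05; two-sided exact permutation p = 0.1, the smallest that 3 libraries against 3 allow). Which species the transduced menin came from is not stated, so the share of this signal owed to the transgene is unknown. All 13 beta cell markers reached 1 RPKM in at least 3 libraries, while none of the 6 endothelial, 6 immune and 6 acinar markers did. Of 8 fibroblast markers, Thy1 did and rose, and Col3a1, Dcn, Lum and Pdgfrb were listed at 0 in every library. The summed level of the 8 was 96.4 to 104 RPKM in S487D and 65.9 to 69.8 RPKM in S487A. Of all 35362 gene rows, 12182 were listed at 0 in every library. Among them was the phosphatase gene Ppp2ca, named after its values were seen. Why these rows hold 0 was not tested, so a listed 0 does not show that a gene is silent. Of 5 duct markers, none of them at 0 in every library, Krt7 and Muc1 reached 1 RPKM in at least 3 libraries and both fell. Muc1 was at 0.71, 0.535 and 0.347 RPKM in S487D and 1.38, 1.54 and 1.41 RPKM in S487A. It thus entered the test only through the group in which it was higher. The summed level of the 5 was 81.3 to 85.0 RPKM in S487D and 209 to 228 RPKM in S487A. Of the 13 beta cell markers, 8 rose and 5 fell. The insulin gene Ins1 was 3.57-fold higher in S487D by mean RPKM (log2 change 1.84, adjusted p = 2.41e-08), a difference that quantile normalization sets to 0 (adjusted p = 1; from 3.24e-31 to 1 over its alternatives). Pdx1, a beta cell transcription factor, averaged 226 RPKM in S487D and 207 RPKM in S487A, and the granule protein gene Chga 3224 RPKM in S487D and 3528 RPKM in S487A. Mafa and Nkx6-1, transcription factor genes named after their values were seen, moved in opposite directions: Mafa was at 137, 120 and 140 RPKM in S487D and 34.0, 36.0 and 35.0 RPKM in S487A, and Nkx6-1 at 4.84, 4.43 and 3.98 RPKM in S487D and 9.62, 9.94 and 10.7 RPKM in S487A. The part of these markers in the results was not tested. In RNA from whole cultures, fewer cells that express a gene and less RNA per cell cannot be told apart. Since no label states separate cultures or transductions for the replicates, the p-values rest on a spread that may be technical, and a mutant cannot be told apart from the cell population that carries it.

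Among the tested members, the largest change was that of a ligand. S487D cells had about 6.19-fold more Wnt4 mRNA than S487A cells, and less Wnt9a and Wnt9b. They also had less Wls, the carrier of Wnt proteins to the cell surface, less of the TCF factor Tcf7l1 and the receptor Ror1, and more of the Frizzled receptors Fzd1 and Fzd2. Ctnnb1, the beta-catenin gene, Lrp6, Ryk and Znrf3 did not pass the test. Of the 46 genes, 25 reached 1 RPKM in at least 3 libraries and were tested with limma on log2(RPKM + 1), with p-values adjusted over the 12527 genes that passed this filter and called under 0.05. Among these, 7 rose in S487D (Wnt4, Wnt5a, Fzd1, Fzd2, Lgr4, Dvl1 and Dvl3), 7 fell (Wnt9a, Wls, Fzd3, Lrp5, Ror1, Apc and Tcf7l1) and 11 did not pass. The 14 calls are 56% of the members tested, against 44.4% of all genes tested, with 20.1% of all genes higher and 24.3% lower. Calls with a change of at least 1.5-fold numbered 5 (20% of the members tested), against 8.25% of all genes tested. They were Wnt4 and Fzd1 upward, where the background is 2.05%, and Wnt9a, Wls and Tcf7l1 downward, where it is 6.2%. In 15 of the 25 members (60%) the groups did not overlap, against 54.6% of all genes tested. The members' median log2 change was 0.00, beside -0.01 over all genes tested. Fzd1 and Wnt5a reached 1 RPKM only in S487D and Tcf7l1 only in S487A, so these 3 entered the test through the group in which they were higher, and the counts describe the tested genes only. Without a filter on low values, 4 of 45 members rose and 6 fell, against 22.4% called among all genes above 0. Without S487D replicate 1, 3 members rose and 7 fell, while over all genes tested 1940 rose and 2710 fell. Of the 14 calls, 7 (50%) were upward with values as deposited, 9 of 16 (56.2%) after quantile normalization and 9 of 14 (64.3%) after centring each library on its median. The same shares over all called genes were 45.3%, 55.4% and 58.9%.

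**Figure D1:**
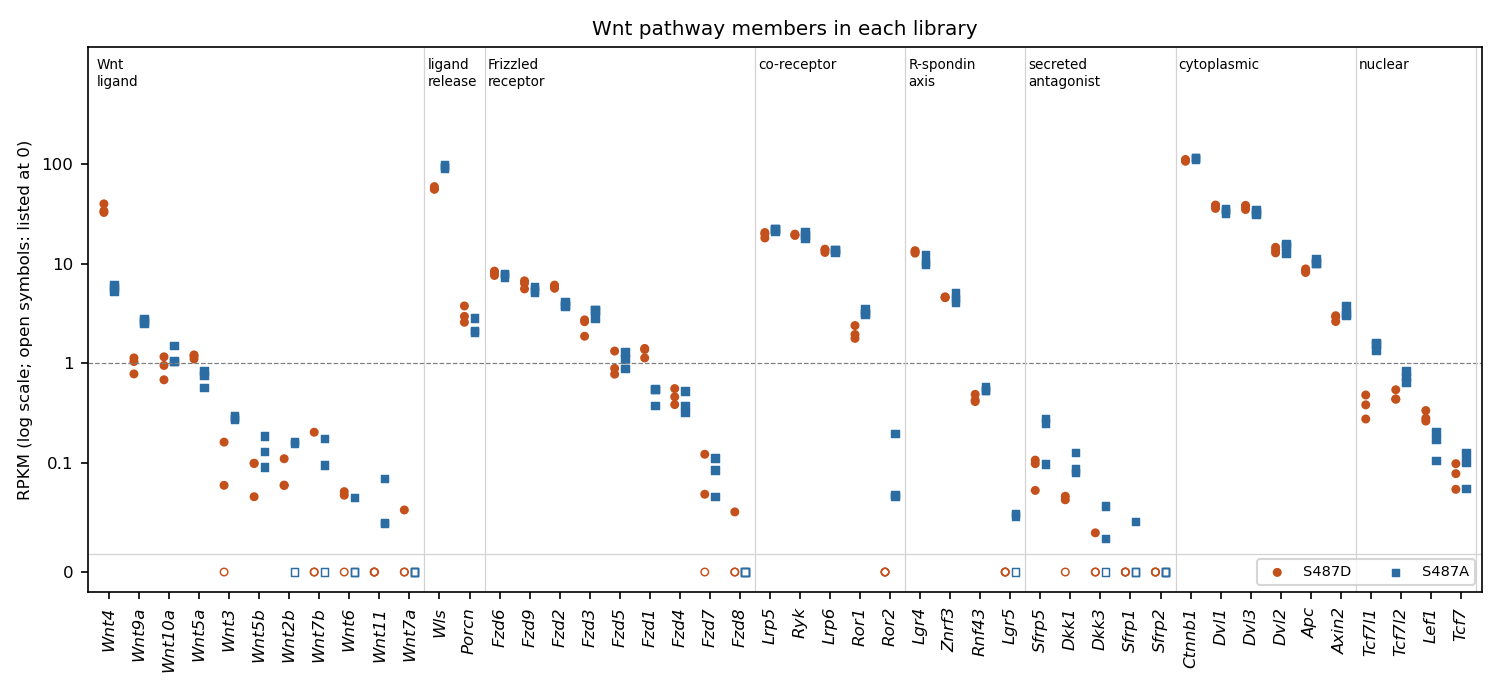
RPKM of the 46 members in each library on a log axis, ordered by class and, within a class, by mean level; circles are the 3 S487D libraries, squares the 3 S487A libraries, open symbols values listed at 0, and the dashed line marks 1 RPKM. Wls and Ctnnb1 stand highest, the secreted antagonists lie below 1 RPKM, and the Wnt4 groups lie far apart.

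Among regulatory sequences, 250 bases upstream of the RefSeq start site (build GRCr8) are shown for Wnt4 and Wnt9a, the ligands with the largest rise and fall among the members, and for Axin2, a feedback inhibitor that beta-catenin and TCF factors are known to induce. Capitals mark CG dinucleotides in the first pair of sequences and the TCF and LEF core letters CTTTGAT in the Axin2 sequence. The positions are chr5:154797200-154797449 for Wnt4, chr10:44593441-44593690 for Wnt9a and chr10:94398535-94398784 for Axin2, each on the plus strand.
Wnt4: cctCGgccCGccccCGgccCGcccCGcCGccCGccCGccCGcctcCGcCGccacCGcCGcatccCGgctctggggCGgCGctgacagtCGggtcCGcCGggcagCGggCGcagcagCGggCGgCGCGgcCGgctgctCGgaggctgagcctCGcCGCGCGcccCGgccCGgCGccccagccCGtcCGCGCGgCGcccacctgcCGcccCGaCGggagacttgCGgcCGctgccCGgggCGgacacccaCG
Wnt9a: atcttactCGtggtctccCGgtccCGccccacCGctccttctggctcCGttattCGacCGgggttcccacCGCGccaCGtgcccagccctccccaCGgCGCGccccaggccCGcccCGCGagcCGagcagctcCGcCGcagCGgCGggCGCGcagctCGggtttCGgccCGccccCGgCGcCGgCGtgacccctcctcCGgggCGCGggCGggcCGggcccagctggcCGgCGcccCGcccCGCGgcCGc
Axin2: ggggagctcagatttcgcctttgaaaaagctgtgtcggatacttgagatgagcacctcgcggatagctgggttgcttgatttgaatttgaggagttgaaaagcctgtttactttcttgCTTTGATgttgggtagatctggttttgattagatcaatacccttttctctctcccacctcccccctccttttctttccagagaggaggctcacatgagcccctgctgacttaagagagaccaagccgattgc

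The Wnt4 and Wnt9a windows, taken from 250 bases before to 50 after the start site, held 53 and 52 CG dinucleotides, and 0.385% and 0.493% of all 33469 RefSeq promoter windows held as many. The median was 7 over all windows and 26 over the 35 members that have one. These 2 ligand genes, which moved in opposite directions, thus share CG-rich promoters with a GC content of 83.3% and 80.7%. The letters CTTTGAT or CTTTGTT, searched on both strands, occurred in 4 of the 35 members' windows (11.4%) and in 9.39% of all windows. The 4 were Axin2 and Tcf7 with CTTTGAT, and Dkk1 and Wnt3 with CTTTGTT. The match in Axin2 starts 132 bases upstream of the start site. Of these 4 genes, only Axin2 was high enough for the main test. A match is a description of the letters and not a binding site.

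Of the 11 listed ligands 4 were tested, of which 2 rose, 1 fell and 1 did not pass. That is 75% called among few genes, beside 44.4% of all genes tested. Wnt4, which signals through both branches depending on the tissue, was at 33.9, 32.7 and 39.9 RPKM in the S487D libraries and at 5.27, 6.15 and 5.78 RPKM in the S487A libraries. Every S487D library lay above every S487A library by a wide margin. The log2 change was 2.43 (SE 0.081, limma adjusted p = 3.33e-08), the third largest rise (rank 3) among the 12527 genes tested. Wnt4 lies on chromosome 5 from 155649238 to 155668065 on the plus strand (rn6), and its row overlaps no other listed gene. The 20 tested genes nearest to it, 10 on each side, had a median log2 change of 0.04.

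Wnt9a, a ligand known for its part in joint and limb development, was at 1.13, 0.781 and 1.04 RPKM in S487D and at 2.55, 2.66 and 2.81 RPKM in S487A. The groups did not overlap, and the log2 change was -0.89 (SE 0.098, adjusted p = 7.73e-05). Because 1 is added to values of this size, the change is understated: the ratio of mean RPKM was 0.369, and limma voom on the recovered reads gave a log2 change of -1.44. Wnt9a lies on chromosome 10 from 45659047 to 45686103 (rn6), next to Wnt3a. Wnt3a, a canonical ligand named after its values were seen, was too low to be tested, at 0.606, 0.58 and 0.512 RPKM in S487D and 0.241, 0.318 and 0.437 RPKM in S487A. The values of these neighbours thus lay in opposite order between the groups.

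Wnt5a, a ligand of the branches that do not need beta-catenin, was at 1.21, 1.18 and 1.10 RPKM in S487D and at 0.839, 0.572 and 0.76 RPKM in S487A. The groups lay apart by a small margin, with a log2 change of 0.33 (SE 0.10, adjusted p = 0.0262) and of 0.71 with voom. The call was lost without S487D replicate 1 (adjusted p = 0.0755), S487D replicate 2 (0.0656) or S487A replicate 2 (0.0912), with values between 0.00208 to 0.0912 over 15 alternatives. Wnt10a, a canonical ligand, passed no test, at 0.931 ± 0.24 RPKM in S487D and 1.20 ± 0.26 RPKM in S487A (SD, n = 3 each), with a 95% interval of the log2 change from -0.48 to 0.10. Wnt6 is its close neighbour on chromosome 9, with 2 reads over the S487D libraries and 1 read over the S487A libraries.

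The other 7 listed ligands were at most at 0.296 RPKM in any library and were not tested. Wnt3, a canonical ligand, had the most reads of these, with 2, 0 and 5 reads in the S487D libraries and 9, 10 and 10 reads in the S487A libraries, which lay above all S487D libraries. With voom on all 17140 genes that had at least 10 reads over the 6 libraries, an alternative chosen after seeing the data, the log2 change of Wnt3 was -2.32 (SE 0.63, adjusted p = 0.00372). By that test 17 of 36 members were called, against 6526 genes or 38.1% of those it covered. Wnt11 had 0 reads in each S487D library and 1, 3 and 1 reads in the S487A libraries, too few in all for that test. Wnt2b and Wnt5b had 0 to 4 reads in any library and were not called by it (log2 change 0.04 and -0.60), and Wnt7a and Wnt7b had 0 to 2 reads.

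Together with the ligands outside the list, the make-up of the Wnt ligand mRNA differed between the cells. The summed level of the 19 Wnt genes in the table was 40.4, 38.7 and 46.3 RPKM in S487D and 15.7, 17.3 and 17.6 RPKM in S487A. Wnt4 held 84.0, 84.4 and 86.2% of that sum in S487D and 33.5, 35.6 and 32.9% in S487A. Without Wnt4, the sum was 6.47, 6.02 and 6.39 RPKM in S487D and 10.4, 11.1 and 11.8 RPKM in S487A, so this sum lay in the opposite order, with Wnt9a and Wnt9b lower in S487D and Wnt5a higher. Of the 8 Wnt genes outside the list, Wnt1, Wnt8a, Wnt8b and Wnt16 were listed at 0 in every library. Wnt9b, a paralog of Wnt9a, fell, with 1.26, 1.37 and 1.35 RPKM in S487D and 3.83, 4.35 and 4.33 RPKM in S487A (log2 change -1.15, adjusted p = 4.57e-06). It lies beside Wnt3 on chromosome 10, from 91785893 to 91807937 (rn6). Wnt10b, the only other one tested and also named after its values were seen, passed no test, at 0.947 RPKM in S487D and 1.29 RPKM in S487A on average.

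**Figure D2:**
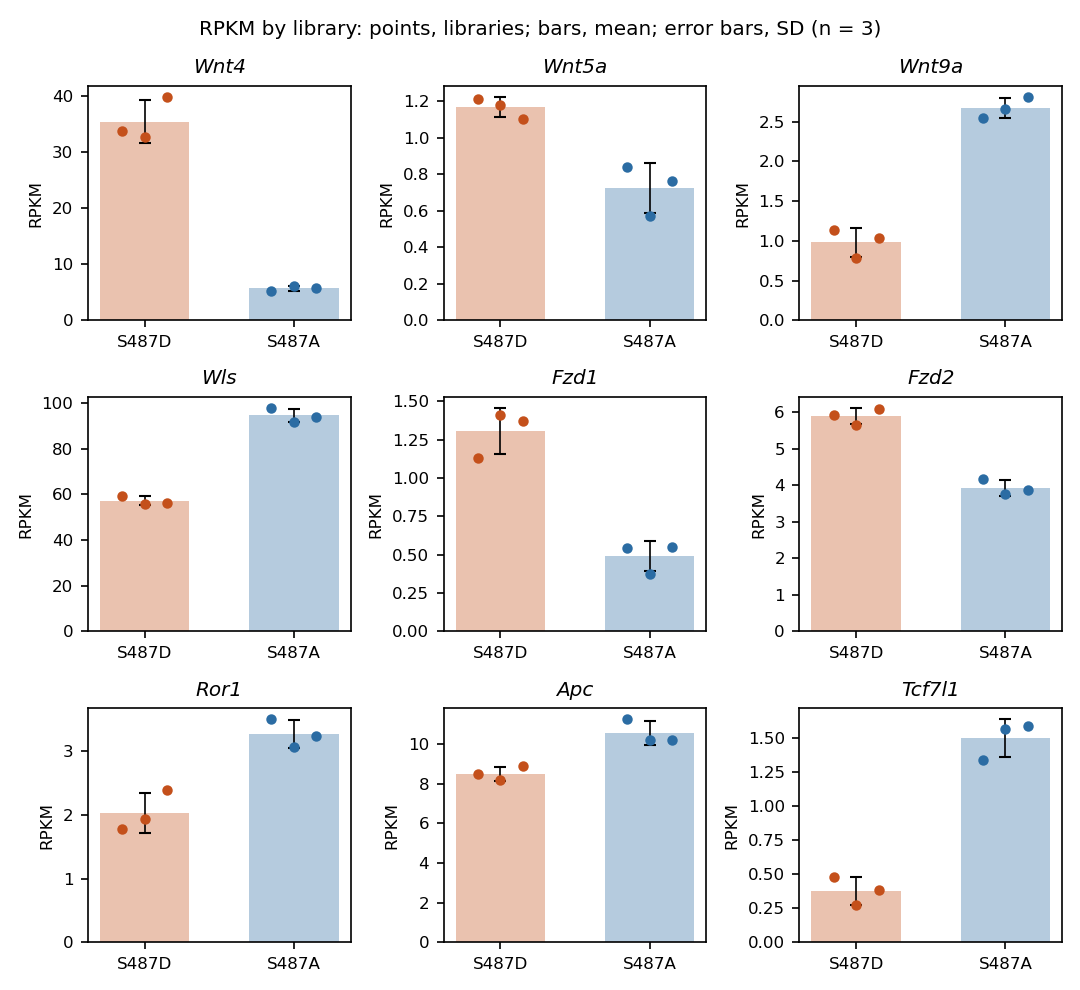
RPKM of 9 called members in S487D (left) and S487A (right) libraries; points are libraries, bars group means and error bars the SD of 3 libraries, on axes that start at 0. In each panel the groups do not overlap, with Wnt4 at 32.7 to 39.9 RPKM in S487D and 5.27 to 6.15 RPKM in S487A.

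Genes for the release of Wnt proteins differed in their response. Wls, also called Wntless, escorts lipid-modified Wnt proteins from the Golgi to the cell surface. It was at 59.4, 56.0 and 56.2 RPKM in S487D and at 97.8, 91.9 and 94.1 RPKM in S487A, with no overlap and little spread in either group. Its log2 change was -0.72 (SE 0.043, adjusted p = 1.59e-06). Wls lies on chromosome 2 from 266315036 to 266431220, near the end of the listed genes of that chromosome, and its 10 nearest tested neighbours, all on one side, had a median log2 change of -0.11. Porcn, the acyltransferase that attaches the lipid, was at 2.96, 2.58 and 3.76 RPKM in S487D and 2.14, 2.07 and 2.85 RPKM in S487A. These overlap, and the log2 change of 0.29 did not pass (95% interval 0.0039 to 0.57, adjusted p = 0.0928). It passed after quantile normalization (adjusted p = 0.0254), after median centring (0.0417), with a replicate block (0.0254) and without S487A replicate 3 (0.038), over a range of 0.0254 to 0.289 over its alternatives.

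Of the 9 Frizzled genes, 6 were tested, 2 rose, 1 fell and 3 did not pass (50% called, beside 44.4% of all genes tested). Fzd6 and Fzd9 were the highest, followed by Fzd2 and Fzd3. The Fzd6 row overlaps a listed gene on the same strand, so its level may include reads of that gene. Fzd1 was at 1.13, 1.41 and 1.37 RPKM in S487D and at 0.544, 0.377 and 0.553 RPKM in S487A, and the groups did not overlap. Its log2 change was 0.63 (SE 0.11, adjusted p = 0.00118), and 1.41 with voom. It was 0.571, just under 1.5-fold, without S487A replicate 2.

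Fzd2 was at 5.92, 5.66 and 6.09 RPKM in S487D and at 4.17, 3.76 and 3.87 RPKM in S487A, again with no overlap (log2 change 0.48, SE 0.069, adjusted p = 4.05e-04). Fzd3, a Frizzled known for its role in planar polarity and axon guidance, was at 2.73, 1.87 and 2.61 RPKM in S487D and 3.44, 3.41 and 2.86 RPKM in S487A. The groups lay close to each other, and the call (log2 change of -0.32; adjusted p = 0.0447) was lost after quantile normalization (adjusted p = 0.149), after median centring (0.0766), without a filter (0.124) and without S487D replicate 2 (0.133), S487A replicate 1 (0.121) or S487A replicate 2 (0.118), over a range of 0.0189 to 0.149. The log2 change of Fzd3 was -0.204 without S487D replicate 2.

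Fzd6 was at 8.06 ± 0.41 RPKM in S487D and 7.68 ± 0.32 RPKM in S487A (SD, n = 3 each; 95% interval of the log2 change -0.08 to 0.20). Fzd9 did not pass either (log2 change 0.15, 95% interval -0.03 to 0.33, adjusted p = 0.155), but did after quantile normalization (0.0268) and median centring (0.0474), over a range of 0.0268 to 0.393. The interval of Fzd5 ran from -0.37 to 0.21. Fzd4 was too low for the test, with 93 reads over the S487D libraries and 87 over the S487A libraries. Fzd7 and Fzd8 had 0 to 5 reads in any library. The summed level of the 9 Frizzled genes was 25.8, 24.0 and 26.4 RPKM in S487D and 22.9, 22.1 and 22.2 RPKM in S487A, a far smaller difference than that of the ligands.

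Co-receptors of the canonical branch were well expressed and moved little. Lrp6 was at 13.5 ± 0.52 RPKM in both groups (SD, n = 3 each), with a 95% interval of the log2 change from -0.12 to 0.13. Lrp5 was at 20.6, 18.1 and 19.8 RPKM in S487D and 21.3, 22.4 and 22.2 RPKM in S487A, lower in S487D by a log2 change of -0.17 (adjusted p = 0.0354). That call was lost without S487D replicate 2 (adjusted p = 0.111), S487D replicate 3 (0.0581), S487A replicate 2 (0.0947) or S487A replicate 3 (0.0899), and also with a replicate block (0.0554), without a filter (0.0631), without an intensity trend (0.0561) and after median centring (0.119), over a range of 0.0072 to 0.119. The neighbours of Lrp5 on chromosome 1 had a median log2 change of 0.13.

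Receptors of the other branches differed among themselves. Ror1, a tyrosine kinase-like receptor that binds Wnt5a, was at 1.78, 1.94 and 2.39 RPKM in S487D and at 3.51, 3.07 and 3.25 RPKM in S487A. The groups did not overlap, and the log2 change was -0.50 (SE 0.096, adjusted p = 0.00251). Its paralog Ror2 had 0 reads in each S487D library and 8, 2 and 2 reads in the S487A libraries, mostly from a single library (voom adjusted p = 0.00361). The S487A levels were 0.198, 0.0457 and 0.0483 RPKM, so Ror2 was hardly detected in either group. Ryk, an atypical Wnt receptor, was at 19.5 RPKM in both groups, with a 95% interval of the log2 change from -0.13 to 0.14.

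R-spondins strengthen Wnt signalling by binding Lgr receptors and withdrawing the ubiquitin ligases Rnf43 and Znrf3, which remove Frizzled proteins from the membrane. Lgr4 was at 13.5, 13.2 and 12.8 RPKM in S487D and 12.3, 10.2 and 9.88 RPKM in S487A. Here the groups came close, and the log2 change was 0.27 (SE 0.077, adjusted p = 0.0196). The call was lost without S487D replicate 1 (adjusted p = 0.0625), S487D replicate 2 (0.0509), S487A replicate 2 (0.0638) or S487A replicate 3 (0.0693) and without a filter (0.0545), over a range of 0.00162 to 0.0693. Lgr5, the stem cell marker of the gut, had 0 reads in S487D and 2 reads over the S487A libraries. Znrf3 was at 4.59, 4.65 and 4.55 RPKM in S487D and 4.12, 4.48 and 5.09 RPKM in S487A, which overlap, and its log2 change had a 95% interval from -0.17 to 0.19. Rnf43 was below the test's limit, at 0.412, 0.487 and 0.426 RPKM in S487D and 0.575, 0.541 and 0.532 RPKM in S487A. Its groups did not overlap, but voom did not call it (log2 change -0.31, adjusted p = 0.161).

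The 5 secreted antagonists of the list were hardly detected. Sfrp2 was listed at 0 in every library, Sfrp1 and Dkk3 had 0 to 2 reads and Dkk1 0 to 3 reads in any library. Sfrp5 had 2, 1 and 2 reads in S487D and 5, 6 and 2 reads in S487A. Of 20 secreted modulators outside the list, 14 were likewise too low to be tested, at no more than 0.316 RPKM in any library. Rspo4, an R-spondin, fell to 115, 110 and 115 RPKM in S487D, against 167, 174 and 173 RPKM in S487A (log2 change -0.59, adjusted p = 2.46e-06). Wif1, which binds Wnt proteins outside the cell, rose to 80.1, 72.0 and 79.0 RPKM in S487D, against 46.7, 47.9 and 47.3 RPKM in S487A (log2 change 0.69, adjusted p = 3.78e-06). For both genes the groups lay well apart. Igfbp4, an IGF-binding protein that can also block Frizzled and Lrp6, rose as well (log2 change 0.59). Dkk4, an antagonist of Lrp5 and Lrp6, was at 7.43 ± 0.10 RPKM in S487D and 8.99 ± 0.97 RPKM in S487A (adjusted p = 0.0278). Its call was lost in 10 alternatives, without any single library other than S487A replicate 2 among them (adjusted p = 0.0593 without S487D replicate 1, 0.0718 without S487D replicate 2, 0.059 without S487D replicate 3, 0.0851 without S487A replicate 1 and 0.0667 without S487A replicate 3), over a range of 0.00878 to 0.112. These 4 were the ones called among the 6 tested (66.7%, beside 44.4% of all genes tested).

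**Figure D3:**
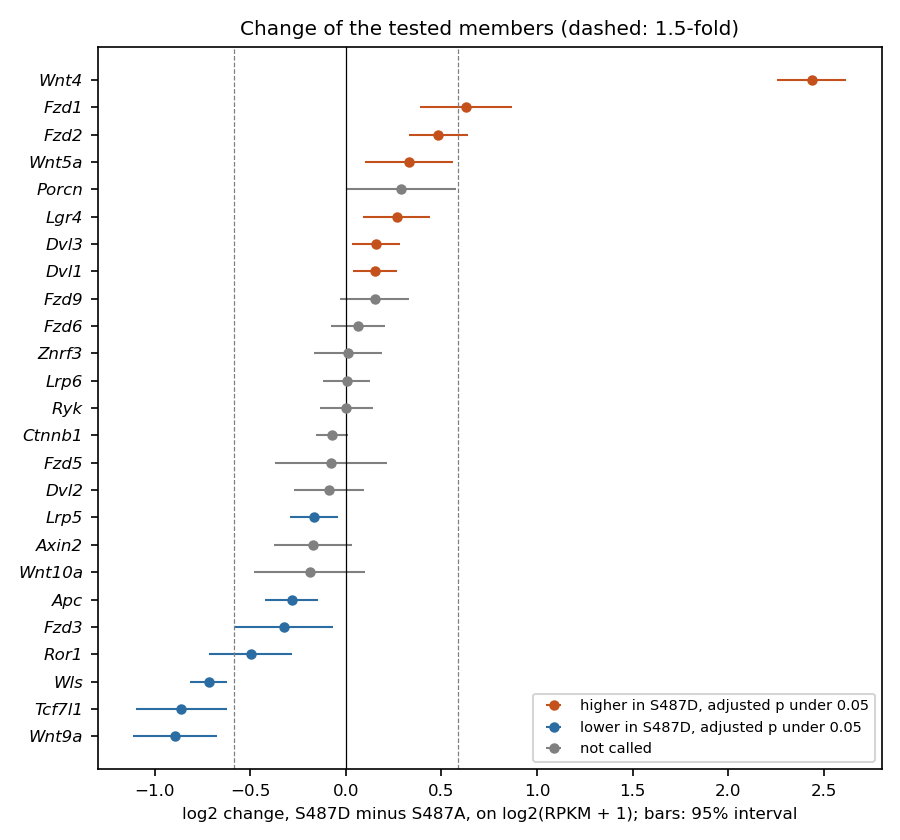
Log2 change, S487D minus S487A, on the log2(RPKM + 1) scale for the 25 tested members, with 95% intervals from limma before adjustment; the dashed lines mark 1.5-fold. Wnt4 stands apart at 2.43, and Wnt9a, Tcf7l1 and Wls lie below the lower line.

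In the cytoplasm, Ctnnb1 was the highest member of the list, at 111, 109 and 107 RPKM in S487D and 115, 112 and 117 RPKM in S487A. The groups did not overlap, yet the log2 change of -0.07 was small and did not pass (95% interval -0.16 to 0.01, adjusted p = 0.155). It passed after quantile normalization only (log2 change -0.13, adjusted p = 0.0108), over a range of 0.0108 to 0.784. Apc, the scaffold of the complex that marks beta-catenin for degradation, was at 8.47, 8.16 and 8.86 RPKM in S487D and 11.2, 10.2 and 10.2 RPKM in S487A, without overlap (log2 change -0.28, SE 0.062, adjusted p = 0.00498). Its row overlaps a listed gene on the other strand, whose reads cannot be told apart from it. Axin2, in whose promoter window the TCF and LEF letters are shown above, was at 3.00, 2.63 and 2.92 RPKM in S487D and 3.03, 3.80 and 3.18 RPKM in S487A. These values barely separate, and the log2 change of -0.17 did not pass (95% interval -0.37 to 0.03, adjusted p = 0.157).

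Dishevelled proteins relay the signal from Frizzled receptors to the cytoplasm. Dvl1 was at 38.5, 35.9 and 38.8 RPKM in S487D and 32.2, 35.4 and 34.0 RPKM in S487A (log2 change 0.15, adjusted p = 0.0373). Dvl3 was at 37.5, 35.0 and 38.5 RPKM in S487D and 31.2, 35.1 and 32.8 RPKM in S487A (log2 change 0.16, adjusted p = 0.0423). Both calls were near the threshold: the Dvl3 groups overlap, and those of Dvl1 nearly do. The Dvl1 row also overlaps Tas1r3 on the other strand, whose reads cannot be told apart from it. Without S487D replicate 1 the adjusted p was 0.113 for Dvl1 and 0.113 for Dvl3, without S487D replicate 3 it was 0.111 and 0.13, without S487A replicate 1 it was 0.111 and 0.128, and without S487A replicate 3 it was 0.0745 and 0.0937. Both calls were also lost with a replicate block (0.0638 for Dvl1 and 0.0675 for Dvl3), without a filter (0.0662 and 0.0833) and without an intensity trend (0.07 and 0.0771). Over all alternatives the adjusted p ran from 0.00875 to 0.113 for Dvl1 and from 0.008 to 0.13 for Dvl3. Dvl2 passed no test, at 13.7 ± 0.88 RPKM in S487D and 14.7 ± 1.6 RPKM in S487A (SD, n = 3 each; 95% interval of the log2 change -0.27 to 0.10).

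In the nucleus, mRNAs of the TCF and LEF factors were low in both groups. Tcf7l1, a TCF factor that mostly acts as a repressor, was at 0.48, 0.276 and 0.382 RPKM in S487D and at 1.34, 1.57 and 1.59 RPKM in S487A. All S487D libraries lay far below all S487A libraries, with a log2 change of -0.86 (SE 0.11, adjusted p = 1.70e-04). Voom put it at -1.96, and mean RPKM was 3.96-fold higher in S487A. Its row overlaps a listed gene on the other strand. Tcf7l2, the TCF factor whose human gene carries common variants linked to diabetes risk, was at 0.437, 0.436 and 0.542 RPKM in S487D and 0.733, 0.647 and 0.839 RPKM in S487A. That is 14, 13 and 16 reads in S487D and 23, 22 and 27 reads in S487A, without overlap, but voom did not call it (log2 change -0.63, 95% interval -1.20 to -0.06, adjusted p = 0.0752).

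Lef1 had 18, 14 and 13 reads in S487D and 9, 6 and 11 reads in S487A, and so lay in the opposite order to Tcf7l1 and Tcf7l2 (voom log2 change 0.89, adjusted p = 0.0485). Its row overlaps listed genes on the same strand. Tcf7 had 3 to 5 reads in S487D and 3 to 7 in S487A, and voom did not call it (log2 change -0.25, 95% interval -1.30 to 0.81, adjusted p = 0.749). The summed level of the 4 factors was 1.31, 1.07 and 1.28 RPKM in S487D and 2.30, 2.42 and 2.76 RPKM in S487A.

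**Figure D4:**
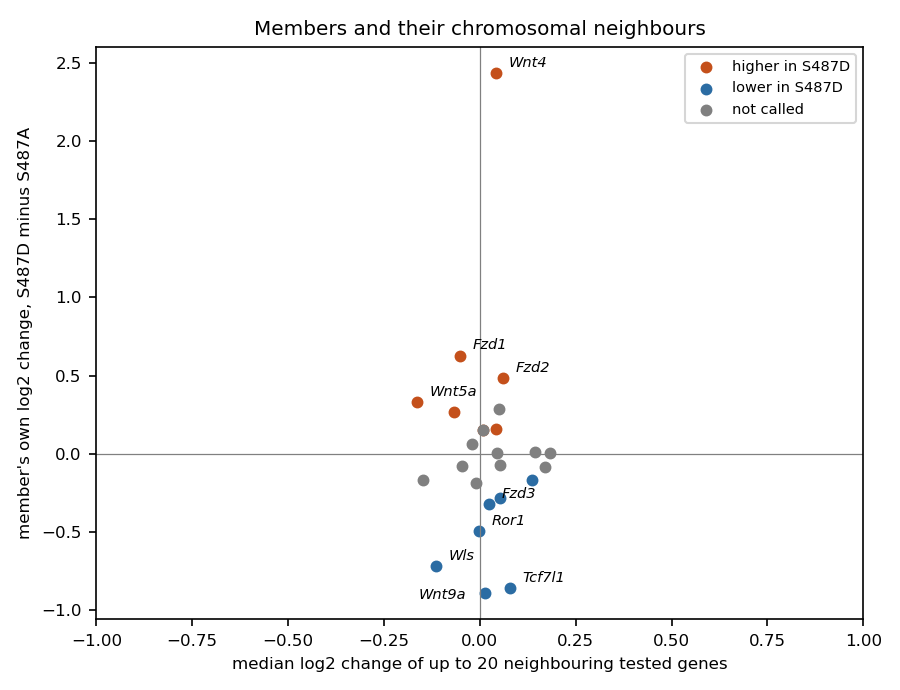
Log2 change of each of the 25 tested members against the median log2 change of the tested genes around it (10 on each side, fewer at the end of a chromosome). Medians around the called members run from -0.16 to 0.13, while the members themselves run from -0.89 to 2.43.

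Each tested member was also set beside its neighbours on the chromosome. Around the 14 called members, the neighbours' medians ran from -0.16 to 0.13. In 8 of the 14 the member and its neighbours' median had opposite signs. Some medians lay near 0, where a sign says little: 0.014 around Wnt9a, 0.024 around Fzd3, 0.008 around Dvl1 and -0.003 around Ror1. The same count over all called genes was not made. Outside the list, Tnik, a kinase that partners TCF factors, was at 1.84 ± 0.095 RPKM in S487D and 7.15 ± 0.082 RPKM in S487A (SD, n = 3 each), a log2 change of -1.52 (adjusted p = 2.56e-07), and its neighbours on chromosome 2 had a median of -0.73.

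Pathway genes outside the list moved about as often as other genes. Of 113 such genes, 112 were found, 79 were tested, 17 rose and 21 fell, which is 48.1% called beside 44.4% of all genes tested, with a median log2 change of -0.04 beside -0.01. Among surface proteins, Gpc4, a glypican that carries Wnt proteins, rose to 78.3, 78.2 and 78.8 RPKM in S487D, against 36.1, 40.8 and 36.0 RPKM in S487A (log2 change 1.04, adjusted p = 5.06e-07). Folds given from here on are on the log2(RPKM + 1) scale. Ptk7, a planar polarity co-receptor, rose 1.20-fold and Vangl1, a core planar polarity protein, fell 1.30-fold. Tmem198, a membrane protein linked to Lrp6, rose 1.29-fold, and Tmem67, a ciliary receptor, fell 1.37-fold. Of the 12 tested in that group, 3 rose, 2 fell and 7 did not pass (41.7% called, near the 44.4% of all genes tested).

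Of 34 tested cytoplasmic genes outside the list, 6 rose, 9 fell and 19 did not pass (44.1% called, near the 44.4% of all genes tested). Apc2, a paralog of Apc, fell to 1.25, 1.08 and 1.37 RPKM in S487D, against 3.42, 3.61 and 3.75 RPKM in S487A (log2 change -1.04, adjusted p = 1.25e-05). Cxxc4, which binds Dishevelled, fell 1.52-fold and the Sumo protease gene Senp2 fell 1.55-fold. Csnk2b, a subunit of casein kinase, and Dact3, a Dishevelled antagonist, both rose 1.30-fold, and Wtip, a LIM domain protein, rose 1.39-fold. The rows of Apc2 and Csnk2b overlap other listed genes.

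Of 25 tested nuclear partners, 6 rose, 7 fell and 12 did not pass (52% called, beside 44.4% of all genes tested). Tle3, a Groucho co-repressor of TCF factors, fell to 8.88, 8.53 and 8.78 RPKM in S487D, against 16.6, 17.6 and 18.3 RPKM in S487A (log2 change -0.92, adjusted p = 1.64e-06), while its paralog Tle4 rose 1.26-fold. Ctnnbip1, an inhibitor that keeps beta-catenin from TCF factors, rose 1.30-fold. Aes, a short member of the Groucho family, was at 449 RPKM in S487D and 409.5 RPKM in S487A on average (log2 change 0.13, adjusted p = 0.0136), and its call was lost after quantile normalization (adjusted p = 0.518), with a replicate block (0.0612) and without S487D replicate 1 (0.0617), over a range of 0.00246 to 0.518. Tbl1xr1, a co-regulator that binds beta-catenin, fell 2.05-fold, and its neighbours on chromosome 2 had a median log2 change of -0.20. The rows of Tle3 and Tbl1xr1 overlap other listed genes.

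Genes known as targets of beta-catenin and TCF factors in vertebrate cells moved in both directions, with more rises than falls. Of 52 listed, some of them also members, 21 were tested, 8 rose, 3 fell and 10 did not pass, which is 52.4% called beside 44.4% of all genes tested. Over all genes tested, 20.1% rose and 24.3% fell. The median log2 change of the targets was 0.10, beside -0.01 over all genes tested. After median centring 10 targets rose and 1 fell, where 58.9% of all called genes were upward. Ccnd2, a cyclin of the G1 phase, rose to 147 ± 4.1 RPKM in S487D, against 86.2 ± 1.2 RPKM in S487A, and Nrcam, a neuronal adhesion molecule, to 7.00 ± 0.45 RPKM, against 3.34 ± 0.26 RPKM in S487A (SD, n = 3 each). The survivin gene Birc5 rose 1.21-fold. Gast, the gastrin gene, fell to 8.14 ± 0.56 RPKM in S487D, against 102 ± 5.0 RPKM in S487A (log2 change -3.49, adjusted p = 4.18e-10). The transcription factor gene Ets2 fell 1.12-fold, and lost its call after median centring (adjusted p = 0.0777; range over its alternatives 0.0046 to 0.0777). Ppard, a nuclear receptor gene, was at 3.53 ± 0.36 RPKM in S487D and 4.46 ± 0.37 RPKM in S487A (SD, n = 3 each; limma adjusted p = 0.03), and lost its call in 7 of 15 alternatives, up to an adjusted p of 0.145. Among targets that feed back on the pathway, Axin2 and Znrf3 were tested and passed no test, and Lgr5, Rnf43, Lef1, Tcf7 and Dkk1 were too low to be tested. Myc, named here after its values were seen, was at 65.0 RPKM in S487D and 63.9 RPKM in S487A on average (log2 change 0.02, adjusted p = 0.697).

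**Figure D5:**
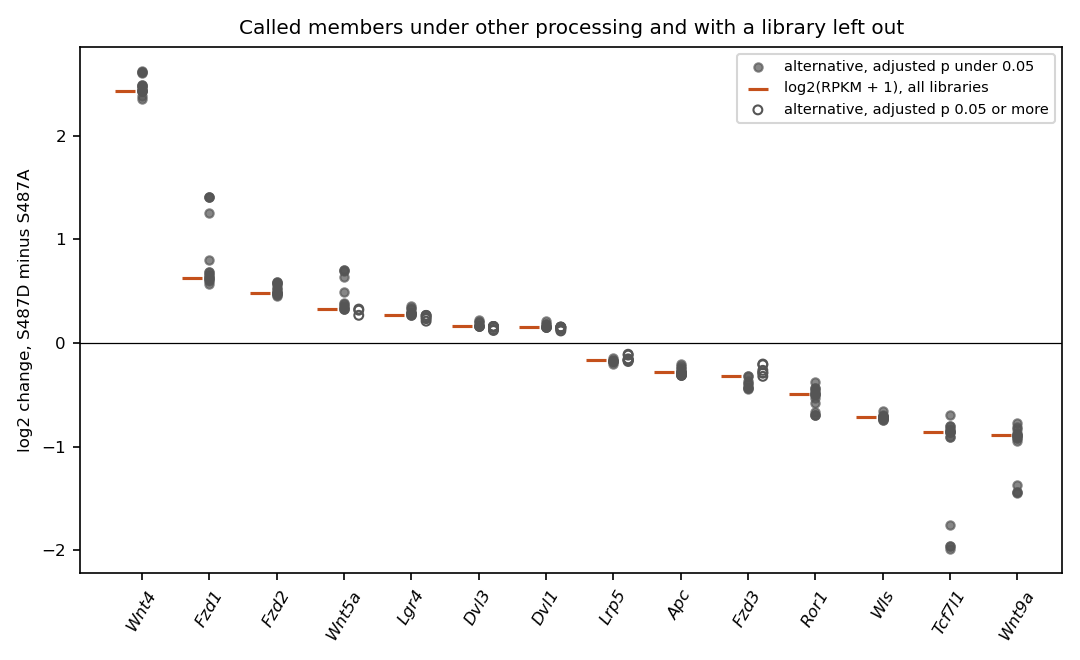
Log2 change of the 14 called members as reported (dash) and under each alternative of processing or with a library left out (dots; open dots, shifted to the right, have an adjusted p of 0.05 or more). The sign held in every alternative drawn. In all alternatives in which they were tested, 8 members (Wnt4, Fzd1, Fzd2, Apc, Ror1, Wls, Tcf7l1 and Wnt9a) kept their call. Fits with a library left out used the genes that passed the filter on all 6 libraries. Fzd1 and Tcf7l1 passed that filter through 1 group only, and it was not applied again.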

How the data were processed

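Transduced INS-1 cells gave 6 mRNA libraries (3 labelled S487D, 3 labelled S487A) by the TruSeq RNA protocol, per the labels' protocols; that kit leaves strand unmarked. The submitters' processing notes name bcl2fastq 2.17, cutadapt and TopHat2 2.0.13 with build rn6 (Rnor_6.0); for counter, annotation and filters: not given in the sources used here. Per row, the deposited table holds the authors' RPKM per gene and library, with position, strand and gene length in bases, per the file headers. Multiplied by length, RPKM gave whole reads (tolerance 0.05 read; 100% of values up to 2000 reads). Between libraries of one group, reads differed beyond counting noise (chi-square per degree of freedom 2.37 to 7.99 for genes with at least 20 reads), and each library counts once.

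The 12527 genes that reached RPKM 1 in 3 or more libraries were fitted as log2(RPKM + 1) in R 4.3.3 by limma 3.58.1, with a trend on intensity, no covariate besides the group, two-sided p-values and Benjamini-Hochberg adjustment over all of them; fold changes are on that scale unless given as a ratio of mean RPKM. The fit was tested on simulated reads. The design foresaw a count model had the table held raw counts; it holds RPKM. Alternatives were pseudocounts of 0.1 and 0.01, no filter, a replicate block, quantile normalization, a filter at RPKM 5, no trend, median centring, voom on recovered reads and each library left out; voom on all genes with at least 10 reads was added after seeing the data. Fits with a library left out kept the 12527 genes that passed the filter on all 6 libraries. The members and lists were chosen with earlier results of these data known. The text names all members, Men1 and up to 3 called genes per direction from each further list. Promoter windows and their coordinates are RefSeq's (GRCr8), matched by symbol. Python 3.11.15 with pandas 2.3.3 was used for tables and matplotlib 3.10.9 for figures.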

Additional observations from a re-analysis of the deposited data

How the results depend on the processing

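Of 389 refits of the 25 tested members, 338 kept direction and side of the threshold, 36 lost a call (6 genes), 7 gained a call (3 genes) and 8 changed sign (4 genes, none called). Members called higher numbered 4 without a filter and 3 to 5 with a library left out, against 7. Over all genes, 2212 were higher without a filter and 1940 to 2347 with a library left out, against 2523. Members called lower numbered 3 with a filter at RPKM 5, which keeps 14 members, and 5 to 7 with a library left out, against 7. Over all genes, 2306 were lower with that filter and 2547 to 2738 with a library left out, against 3041. All-gene counts at 1.5-fold or more were made for the main fit only. At 1.5-fold or more, 1 was higher and 1 lower with that filter, 4 were higher and 6 lower with voom on all genes with at least 10 reads, against 2 and 3, and 1 to 2 were higher with a library left out. The voom changes are not on the log2(RPKM + 1) scale, which understates changes near 1 RPKM, and that fit covers more members. Its counts at 1.5-fold are therefore not like for like with the others. Target genes called lower numbered 1 after median centring, against 3, where 3512 of all genes were higher and 2453 lower. With the same voom fit, 13 targets were higher and 4 lower, against 8 and 3. That fit covered 17140 genes, a wider set than the 12527 of the main fit, of which 2788 were higher and 3738 lower. How many targets it covered was not counted, so 13 and 8 are not shares of the same set. The log2 change of Fzd5 turned to 0.0561 after quantile normalization. With a library left out, signs changed in Fzd5 (log2 change -0.193 to 0.00132), Lrp6 (-0.0246 to 0.034), Ryk (-0.0538 to 0.0583) and Znrf3 (-0.0459 to 0.0787). The cause was not tested.

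No label says that same-numbered libraries pair, so the numbers were not taken as pairs. Same-numbered libraries did not deviate together from their group means (Pearson's r over genes 0.00354, -0.0598 and 0.00998). Between libraries of unlike number, r ran from -0.0997 to 0.101. With a replicate block, 2369 genes were higher and 2966 lower, against 2523 and 3041, and 6 members were higher and 6 lower. Members under 1 RPKM rest on few reads: 17 of the 21 untested had at most 10 reads in every library, where only large differences can be detected.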
